A study of Mus musculus with 6 samples.

Results

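The 10 genes described here belong to bone morphogenetic protein (BMP) signalling: the ligands Bmp4 and Bmp6, the receptors Bmpr2, Acvrl1 and Eng, the inhibitory SMAD genes Smad6 and Smad7, and the target genes Id1, Id2 and Id3. They were chosen by gene symbol as ligands, receptors and SMAD targets, and 10 of 10 were found among the 23207 symbols of the deposited count table. RNA had been sequenced from endothelial cells of the spleen, with 1 library per mouse. The tested mice (1603, 1604 and 1607) had received an antisense oligonucleotide (ASO) against Mlkl, labelled MLKL ASO with the genotype Mlkl KD, and the mice set against them (1601, 1602 and 1608) a control ASO. All 6 animals lacked Apoe, the apolipoprotein whose loss makes mice hypercholesterolaemic, and all were kept on a high cholesterol diet during the 8 weeks of ASO treatment. An ASO lowers its target RNA without deleting the gene. The sources used here do not give the age or sex of the mice, the route of the ASO or the way in which the cells were isolated.

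BMP ligands bind pairs of type I and type II receptor kinases, which phosphorylate SMAD1, SMAD5 and SMAD9. These enter the nucleus with SMAD4 and switch on target genes, among them the Id genes and the inhibitory SMADs, which close a feedback loop. In endothelium the receptor ALK1 (gene Acvrl1), its co-receptor endoglin (Eng) and BMPR2 carry the signal of circulating BMP9 and BMP10, and loss of function of these receptors in humans causes hereditary haemorrhagic telangiectasia or pulmonary arterial hypertension. The Id proteins have a helix-loop-helix domain but do not bind DNA, and they hold back the E proteins, the transcription factors with which tissue-specific helix-loop-helix factors pair.

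The libraries held 59988846 to 85724084 estimated counts in MLKL ASO mice and 67699450 to 87776706 in control ASO mice. Values below are in CPM, the count scaled to a common library total, after TMM scaling, which corrects library totals for differences in RNA composition. Mlkl measured 7.53, 5.81 and 3.74 CPM in MLKL ASO mice 1603, 1604 and 1607, against 30.7, 31.2 and 38.0 CPM in control ASO mice 1601, 1602 and 1608, so the target gene goes with the labels in all 6 mice (log2 fold change -2.55, edgeR adjusted p = 0.0655, DESeq2 adjusted p = 1.2e-15). Of 18 pan-endothelial markers 18 passed the count filter and 0 were at a count of 0 in any library. This shows that endothelial transcripts were present and does not measure the purity of the cells. Transcripts of lymphocytes, macrophages, erythroid cells, megakaryocytes and fibroblasts were present in each library as well. Summed levels of 12 erythroid markers were 70407 to 159236 CPM in MLKL ASO and 46405 to 129268 CPM in control ASO mice. Those of 17 pan-endothelial markers were 5073 to 6416 CPM in MLKL ASO and 5635 to 9745 CPM in control ASO mice. In such bulk samples, fewer cells of a type and less RNA per cell cannot be told apart.

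Levels were compared between genes per kilobase of annotated exon. In MLKL ASO mice Id3 (140.0 ± 11.2 CPM per kilobase), Id1 (139.9 ± 19.0) and Eng (98.2 ± 7.06) stood highest among the members (SD, n = 3). In control ASO mice the order was Id3 (260 ± 32.0 CPM per kilobase), Id1 (194 ± 47.0) and Eng (114 ± 35.5), and the ranges of Id3 and Id1 touched, as Id1 reached 228 CPM per kilobase and Id3 began at 223. Id2 followed at 58.4 ± 6.60 in MLKL ASO and 65.0 ± 10.1 CPM per kilobase in control ASO mice. Acvrl1 lay well below these at 7.21 ± 1.27 and 9.22 ± 0.439 CPM per kilobase. The lowest levels were those of Bmpr2 (3.72 ± 0.204 and 3.77 ± 1.25), Bmp6 (2.31 ± 0.885 and 2.69 ± 0.928), Smad7 (2.17 ± 0.668 and 2.72 ± 0.246), Bmp4 (1.91 ± 0.388 and 1.70 ± 1.07) and Smad6 (0.784 ± 0.0494 and 1.15 ± 0.582), each given for MLKL ASO and then control ASO mice in CPM per kilobase, and Bmpr2, Bmp6, Smad7 and Bmp4 lay within the spread of their neighbours in control ASO mice.

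Id3 showed the largest difference among the members. It lay lower in each MLKL ASO mouse than in any control ASO mouse, as did Acvrl1, while the values of the other 8 members overlapped between the groups. Groups that do not overlap were found in 18.7% of the 19745 genes tested (9.71% lower and 9.02% higher in MLKL ASO mice), so 2 of 10 members is close to that background. In edgeR's quasi-likelihood test with Benjamini-Hochberg adjustment over all genes, 0 of 10 members passed the threshold of 0.05, where 0.0101% of all genes did (1 higher and 1 lower, 0.00506% each). The counts were 10 higher and 3 lower when libraries were scaled to the summed endothelial markers, and 5 and 1 when scaled to their geometric mean. At an unadjusted p under 0.05 there was 1 member, Id3, lower in MLKL ASO mice, where 11.8% of all genes reached that level (6.96% lower and 4.89% higher). DESeq2 placed Id3 alone past the threshold as lower in MLKL ASO mice, where it called 2.61% of genes (1.48% lower and 1.14% higher). So did limma-voom with sample weights, which called 0.111% of genes (0.0658% lower and 0.0456% higher). Id3 was also the only member past the threshold in the authors' deposited table, where 1.82% of the genes with a symbol were (0.94% lower and 0.877% higher). Of the 10 log2 fold changes 9 lay below 0, with a median of -0.27, while 51.2% of all genes tested lay below 0 and 48.8% above it, with a median of -0.0092. Without single mice 7 to 10 lay below 0. Scaling to the summed endothelial markers, which put the median of all genes at 0.33, left 4 of 10 below 0, and scaling to their geometric mean 8 of 10. Exact permutation tests, two-sided throughout, cannot go below 0.1 with 3 mice against 3.

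**Figure D1:**
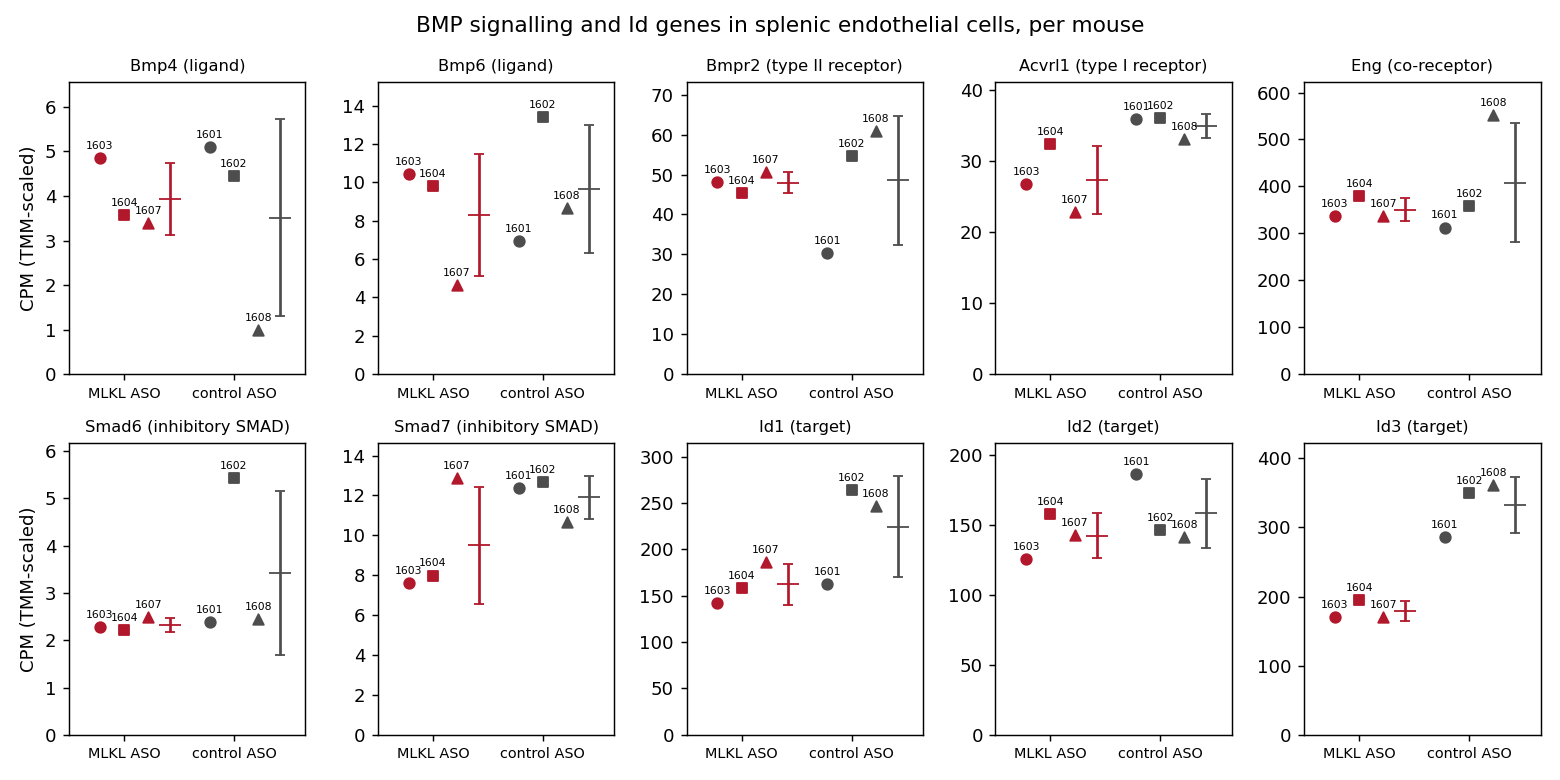
CPM of each member (y axes, from 0) in the 3 MLKL ASO mice (red) and the 3 control ASO mice (grey), with mouse numbers at the points and the mean ± SD beside them. Id3 and Acvrl1 are the members without overlap, Smad6 is high in control mouse 1602 only, and Bmp4 is low in control mouse 1608.

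Neither ligand separated the groups. Bmp4, a ligand made by stromal and endothelial cells, measured 4.86, 3.56 and 3.39 CPM in MLKL ASO mice 1603, 1604 and 1607, against 5.11, 4.44 and 0.993 CPM in control ASO mice 1601, 1602 and 1608. The value of mouse 1608 stood apart below the other 5, and that library had 70 estimated counts for the gene. On the log2 scale MLKL ASO lay 0.16 above control ASO (standard error 0.55, edgeR adjusted p = 0.941). It turned to -0.28 without control mouse 1608 and to -0.021 without mouse 1603, and the authors' deposited table gives -0.073. Library 1608 also held the lowest summed level of fibroblast and mural markers, 237 CPM against 361 to 582 CPM in MLKL ASO mice and 527 to 585 CPM in the other control ASO mice, and the part of this in the Bmp4 value was not tested. Bmp4 shares 89 exonic bases with a gene on the opposite strand, Gm15217.

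Bmp6, which in mouse liver is made by sinusoidal endothelium and drives the iron hormone hepcidin, measured 10.5, 9.78 and 4.64 CPM in MLKL ASO mice 1603, 1604 and 1607. In control ASO mice 1601, 1602 and 1608 it measured 6.95, 13.4 and 8.67 CPM. The spread within each group, 3.18 CPM (SD, n = 3) in MLKL ASO and 3.34 CPM (SD, n = 3) in control ASO mice, exceeded the difference between the means of 8.29 and 9.67 CPM. The log2 fold change of -0.22 (standard error 0.37, edgeR adjusted p = 0.852) changed sign without mouse 1607 (0.062) or mouse 1602 (0.084). Bmp6 shares 224 exonic bases with Txndc5 on the opposite strand, which measured 67.3 ± 8.34 CPM in MLKL ASO and 100 ± 29.8 CPM in control ASO mice (SD, n = 3).

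Among the receptors, Acvrl1 was the member without overlap. It encodes ALK1, the type I receptor of endothelium, and measured 26.8, 32.5 and 22.9 CPM in MLKL ASO mice 1603, 1604 and 1607, against 35.9, 36.1 and 33.1 CPM in control ASO mice 1601, 1602 and 1608. The gap between the groups was narrow, as mouse 1604 lay just under mouse 1608. The log2 fold change of -0.36 (standard error 0.15) did not pass in edgeR (adjusted p = 0.430, unadjusted p = 0.0537), and its exact permutation p was 0.1. Leaving out single mice gave -0.50 to -0.24. Scaling to the summed endothelial markers gave -0.045, and scaling to their geometric mean -0.32. The authors' deposited table gives -0.46 with an adjusted p of 0.284. Acvrl1 shares 87 exonic bases with Gm16031 on the opposite strand, and Eng shares 61 with Fpgs.

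Eng, the endoglin co-receptor, measured 336, 380 and 336 CPM in MLKL ASO mice 1603, 1604 and 1607 and 312, 359 and 552 CPM in control ASO mice 1601, 1602 and 1608. Control mouse 1608 stood above all others, and the remaining 5 values overlapped. Its log2 fold change of -0.22 (standard error 0.21, edgeR adjusted p = 0.724) turned to 0.065 without mouse 1608. That library also held the highest summed level of 17 pan-endothelial markers other than Eng, 9745 CPM, against 5073 to 6416 CPM in MLKL ASO mice and 5635 and 7693 CPM in control ASO mice 1601 and 1602. The part of this in the Eng value was not tested.

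Bmpr2, the type II receptor, measured 48.1, 45.3 and 50.5 CPM in MLKL ASO mice 1603, 1604 and 1607, against 30.3, 54.5 and 60.9 CPM in control ASO mice 1601, 1602 and 1608. The MLKL ASO values lay inside the range of the control ASO values, whose SD of 16.1 CPM (n = 3) compared with 2.63 CPM (n = 3) in MLKL ASO mice. A log2 fold change of -0.019 resulted (standard error 0.25, edgeR adjusted p = 0.987), which lay above 0 without mouse 1604 (0.0087), 1602 (0.070) or 1608 (0.18).

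The inhibitory SMAD genes were low in both groups. Smad6, whose protein blocks BMP receptors and SMAD1, measured 2.27, 2.22 and 2.50 CPM in MLKL ASO mice 1603, 1604 and 1607, against 2.39, 5.42 and 2.45 CPM in control ASO mice 1601, 1602 and 1608. The 5 mice other than control mouse 1602 lay within 2.22 to 2.50 CPM, and the log2 fold change of -0.55 (standard error 0.37, edgeR adjusted p = 0.591) was -0.058 without that mouse. Smad7, which acts on BMP and TGF-β receptors alike, measured 7.63, 7.99 and 12.9 CPM in MLKL ASO mice 1603, 1604 and 1607 and 12.4, 12.7 and 10.7 CPM in control ASO mice 1601, 1602 and 1608. Mice 1603 and 1604 were low and mouse 1607 was the highest of all. Its log2 fold change of -0.32 (standard error 0.24, edgeR adjusted p = 0.632) became -0.61 without mouse 1607, -0.20 without mouse 1603 and -0.22 without mouse 1604.

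Of the Id genes, Id3 was the only one whose groups did not overlap. It measured 171, 195 and 170 CPM in MLKL ASO mice 1603, 1604 and 1607, against 285, 350 and 361 CPM in control ASO mice 1601, 1602 and 1608. The highest MLKL ASO mouse thus lay under the lowest control ASO mouse, and the means of 179 ± 14.3 CPM and 332 ± 40.8 CPM (SD, n = 3 each) were 1.86-fold apart. On the log2 scale the difference was -0.89 (standard error 0.13). It ranked 30 of 19745 genes by unadjusted p (0.000207), did not pass in edgeR (adjusted p = 0.133) and had an exact permutation p of 0.1. DESeq2 (adjusted p = 2.59e-05), limma-voom with sample weights (adjusted p = 0.0472) and the authors' deposited table (-0.84 on the log2 scale, with an adjusted p of 0.000948) placed it past the threshold. Leaving out single mice gave -1.01 to -0.83, and edgeR's adjusted p then ran from 0.0958 without mouse 1608 to 0.631 without mouse 1607.

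Id1, a common readout of ALK1 signalling in endothelium, measured 143, 158 and 186 CPM in MLKL ASO mice 1603, 1604 and 1607, against 163, 264 and 247 CPM in control ASO mice 1601, 1602 and 1608. Control mouse 1601 lay among the MLKL ASO mice, and the other 2 control ASO mice lay above all of them. This gave -0.47 on the log2 scale (standard error 0.20, edgeR adjusted p = 0.425, unadjusted p = 0.0514). Without mouse 1601 it was -0.67 (edgeR adjusted p = 0.183) and without mouse 1602 it was -0.34.

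Id2, which natural killer cells, innate lymphoid cells and some dendritic cells need for their development, measured 126, 158 and 143 CPM in MLKL ASO mice 1603, 1604 and 1607. It measured 187, 147 and 142 CPM in control ASO mice 1601, 1602 and 1608. The groups overlapped, with control mouse 1601 highest. Its log2 fold change of -0.15 (standard error 0.15, edgeR adjusted p = 0.724) ran from -0.24 without mouse 1604 to -0.035 without mouse 1601. That mouse also had the highest summed T and NK cell markers (888 CPM, against 236 to 319 CPM in MLKL ASO mice and 351 and 497 CPM in the other control ASO mice) and the highest dendritic cell markers (666 CPM, against 305 to 370 CPM in MLKL ASO mice and 420 and 422 CPM in the other control ASO mice). B cell markers (2775 CPM, against 858 to 1392 CPM in MLKL ASO mice and 1214 and 1564 CPM in the other control ASO mice) were highest in mouse 1601 too. So were macrophage markers (1562 CPM, against 897 to 1140 CPM in MLKL ASO mice and 790 and 920 CPM in the other control ASO mice). The part of these markers in the Id2 value was not tested.

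The promoters of Id3, Id2 and Smad6 are shown because these are SMAD target genes with different values by mouse: the groups did not overlap in Id3 and overlapped in Id2 and Smad6, all 3 had log2 fold changes below 0, and differences between the genes were not tested. RefSeq promoters (GRCm38.p6) were matched by symbol for 7 of 9 members looked up, and Smad7 was not looked up. Each sequence below is the 250 bases before the transcript start, 5′ to 3′ on the gene's strand. Capitals mark the motifs searched on both strands: GGCGCC and GGAGCC, GC-rich sequences bound by SMAD1 and SMAD5, and CAGAC, the minimal SMAD box. Of 32851 such windows in the table, 9.59% hold GGCGCC, 26% hold GGAGCC and 42.2% hold CAGAC.
Id3 (chr4:136143572-136143821, plus strand): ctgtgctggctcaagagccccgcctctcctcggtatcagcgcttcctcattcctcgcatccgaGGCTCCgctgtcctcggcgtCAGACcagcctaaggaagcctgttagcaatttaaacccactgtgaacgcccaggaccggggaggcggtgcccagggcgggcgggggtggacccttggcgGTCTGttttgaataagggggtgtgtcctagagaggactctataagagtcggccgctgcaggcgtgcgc
Id2 (chr12:25096093-25096342, minus strand): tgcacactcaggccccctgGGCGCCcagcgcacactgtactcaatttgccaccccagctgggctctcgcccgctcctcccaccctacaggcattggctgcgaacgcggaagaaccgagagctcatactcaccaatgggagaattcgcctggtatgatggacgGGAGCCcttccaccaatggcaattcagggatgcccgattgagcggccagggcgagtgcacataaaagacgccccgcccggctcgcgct
Smad6 (chr9:64022060-64022309, minus strand): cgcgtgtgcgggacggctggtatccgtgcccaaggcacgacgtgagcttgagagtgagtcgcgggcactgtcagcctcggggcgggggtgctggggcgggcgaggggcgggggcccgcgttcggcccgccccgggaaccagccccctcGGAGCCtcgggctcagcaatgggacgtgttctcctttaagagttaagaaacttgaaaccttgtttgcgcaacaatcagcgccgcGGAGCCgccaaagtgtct
The Id3 window holds CAGAC at 2 positions, 167 bases before the start and, read on the opposite strand as GTCTG, 68 bases before it, and GGAGCC on the opposite strand (GGCTCC) 187 bases before it. The Id2 window holds GGCGCC 231 bases and GGAGCC 88 bases before the start. The Smad6 window holds GGAGCC at 2 positions, 102 and 18 bases before the start. Of the windows not shown, that of Eng holds CAGAC at 2 positions and that of Bmp6 at 1, and the groups overlapped in both genes. Those of Bmpr2 and Bmp4 hold no CAGAC. A match describes the letters of these windows and no binding was measured.

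The members did not share a single pattern over the mice. Likeness was measured as the root-mean-square difference between log2 CPM values centred on each gene's mean over the 6 libraries. The closest members were Id2 and Acvrl1 (0.20 on the log2 scale), Eng and Bmpr2 (0.24) and Id1 and Eng (0.29), and Id1 and Id3 also differed by 0.29. Bmp4 was farthest from the rest, by up to 1.08 from Id3. Among 9493 other genes with a mean of at least 10 CPM, the closest to Id3 were Arrdc2 (0.041), Ube2e2 (0.076) and Pdgfb (0.11). Arrdc2, an arrestin domain gene, measured 10.3, 11.3 and 9.99 CPM in MLKL ASO mice 1603, 1604 and 1607 and 15.9, 21.3 and 21.4 CPM in control ASO mice 1601, 1602 and 1608. Pdgfb, the endothelial growth factor that recruits mural cells, averaged 8.84 ± 0.158 CPM in MLKL ASO and 16.0 ± 1.44 CPM in control ASO mice (SD, n = 3 each). These genes were chosen for their likeness to Id3, so their difference between the groups is a description. The closest to Id1 were Marf1 (0.065), Hspa2 (0.075) and Rab6b (0.087), and the closest to Id2 were Rapgef6 (0.044), Chst12 (0.058) and Gmeb1 (0.060).

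**Figure D2:**
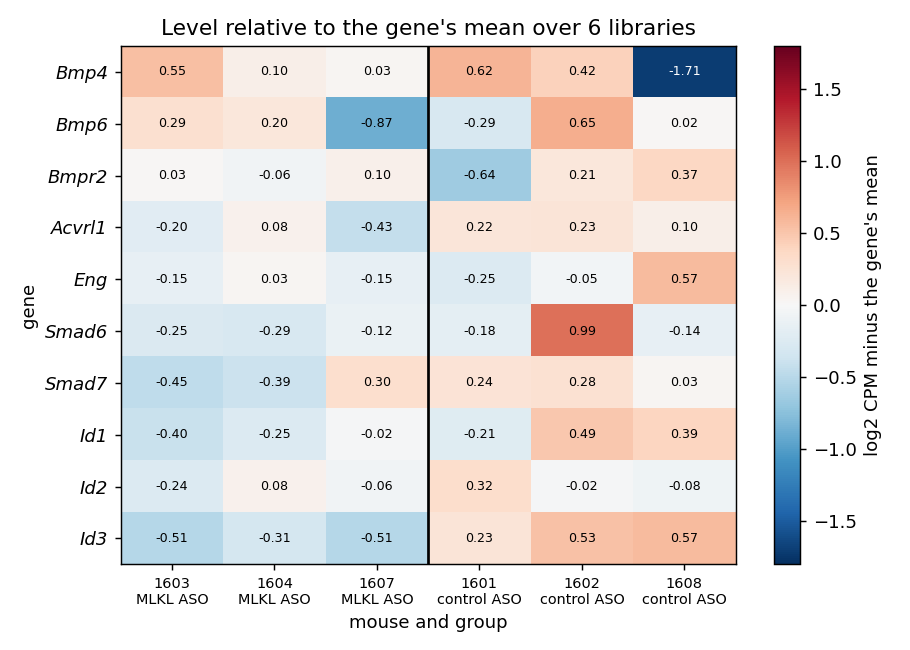
Log2 CPM of each member minus its mean over the 6 libraries (colour and printed values), with MLKL ASO mice left of the line and control ASO mice right of it. The Id3 row runs from -0.51 to -0.31 in MLKL ASO mice and from 0.23 to 0.57 in control ASO mice, and the lowest cell is Bmp4 in control mouse 1608 (-1.71).

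The wider BMP pathway was read from 51 further genes in 5 lists, of which 39 passed the count filter. In edgeR 0 of 39 passed the threshold. At an unadjusted p under 0.05 there were 2 higher and 5 lower, or 17.9% against 11.8% of all genes, and groups did not overlap in 2 higher and 5 lower, or 17.9% against 18.7%. Bmp8a, named after its values were seen and under 1 CPM in every mean, was the ligand gene among those higher. The median log2 fold change was -0.14, against -0.0092 over all genes, and 0.024 without mouse 1608. DESeq2 called 1 of the 39, Msx1, where it called 2.61% of all genes.

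The more abundant of the other ligands overlapped between the groups. Bmp2, the best-measured ligand in the list, measured 163, 130 and 125 CPM in MLKL ASO mice 1603, 1604 and 1607, against 78.2, 124 and 223 CPM in control ASO mice 1601, 1602 and 1608. The control ASO values enclosed all MLKL ASO values. Bmp7 averaged 1.95 ± 0.263 and 1.78 ± 1.12 CPM and Gdf6 1.05 ± 0.752 and 2.64 ± 1.73 CPM in MLKL ASO and control ASO mice (SD, n = 3). Of the 11 ligand genes 5 were tested, 3 above and 2 below 0. Gdf2 and Bmp10, which encode the circulating ligands BMP9 and BMP10, were looked up by symbol. They were not among the symbols of the count table and so were not tested.

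The receptor list had 4 of 6 tested genes above 0 and 2 below. The type I receptor genes Acvr1 (8.42 ± 1.05 and 6.68 ± 1.45 CPM) and Bmpr1a (2.73 ± 0.0364 and 2.08 ± 0.812 CPM), the type II receptor gene Acvr2a (14.8 ± 1.19 and 12.1 ± 4.31 CPM) and the co-receptor gene Rgmb (6.22 ± 0.349 and 7.89 ± 1.89 CPM) all overlapped between MLKL ASO and control ASO mice (SD, n = 3). In the SMAD list 5 of 10 lay above and 5 below 0. Smad1, a signal carrier of the pathway, measured 27.2, 37.4 and 39.4 CPM in MLKL ASO mice 1603, 1604 and 1607 and 17.5, 22.2 and 30.8 CPM in control ASO mice 1601, 1602 and 1608. Mouse 1603 lay under control mouse 1608, so the groups overlapped, and the log2 fold change of 0.56 (standard error 0.24) did not pass in edgeR (adjusted p = 0.423). Skil, which encodes the SMAD repressor SnoN, measured 73.2, 72.0 and 89.9 CPM in the MLKL ASO mice, against 116, 94.5 and 94.3 CPM in the control ASO mice, without overlap (log2 fold change -0.38, edgeR adjusted p = 0.386). Tob1, which holds back BMP SMADs, averaged 58.8 ± 7.12 and 72.5 ± 17.5 CPM in MLKL ASO and control ASO mice (SD, n = 3).

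Antagonists and extracellular modulators had 8 of 11 tested genes below 0, with a median of -0.40. In 3 of the 11 (27.3%), all lower, the groups did not overlap. Of all genes 18.7% did not overlap in either direction, and 9.71% were lower without overlap. In a list of 11 genes, 3 is close to the share in either direction. Bambi, a decoy receptor without a kinase that is itself a BMP and TGF-β target, measured 16.6, 20.5 and 23.7 CPM in MLKL ASO mice 1603, 1604 and 1607, against 27.3, 29.5 and 35.8 CPM in control ASO mice 1601, 1602 and 1608. All MLKL ASO mice lay below the control ASO mice (log2 fold change -0.61, standard error 0.18, edgeR adjusted p = 0.342). The protease gene Htra1, whose product binds TGF-β family ligands, averaged 23.4 ± 4.11 and 41.4 ± 12.4 CPM, and Bmper, an endothelial BMP-binding protein, 2.26 ± 0.349 and 3.23 ± 0.535 CPM in MLKL ASO and control ASO mice (SD, n = 3). Fstl1, the most abundant gene of the list, averaged 174 ± 13.9 CPM in MLKL ASO and 147 ± 30.1 CPM in control ASO mice, with overlap.

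Of 7 other target genes tested, 5 lay below and 2 above 0. Msx1, a homeobox gene induced by BMP signals, measured 22.3, 24.5 and 17.9 CPM in MLKL ASO mice 1603, 1604 and 1607, against 33.5, 44.7 and 35.0 CPM in control ASO mice 1601, 1602 and 1608. It lay lower in every MLKL ASO mouse, at -0.81 on the log2 scale (standard error 0.18, edgeR adjusted p = 0.269, DESeq2 adjusted p = 0.0112). Atoh8, an endothelial target of BMP9, averaged 0.736 ± 0.203 CPM in MLKL ASO and 1.56 ± 0.694 CPM in control ASO mice (SD, n = 3 each), with overlap. Cdkn1a, the cell cycle inhibitor p21 and also a p53 target, went the other way, with 292, 302 and 499 CPM in MLKL ASO mice 1603, 1604 and 1607, against 116, 175 and 246 CPM in control ASO mice 1601, 1602 and 1608 (log2 fold change 1.03, edgeR adjusted p = 0.348).

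**Figure D3:**
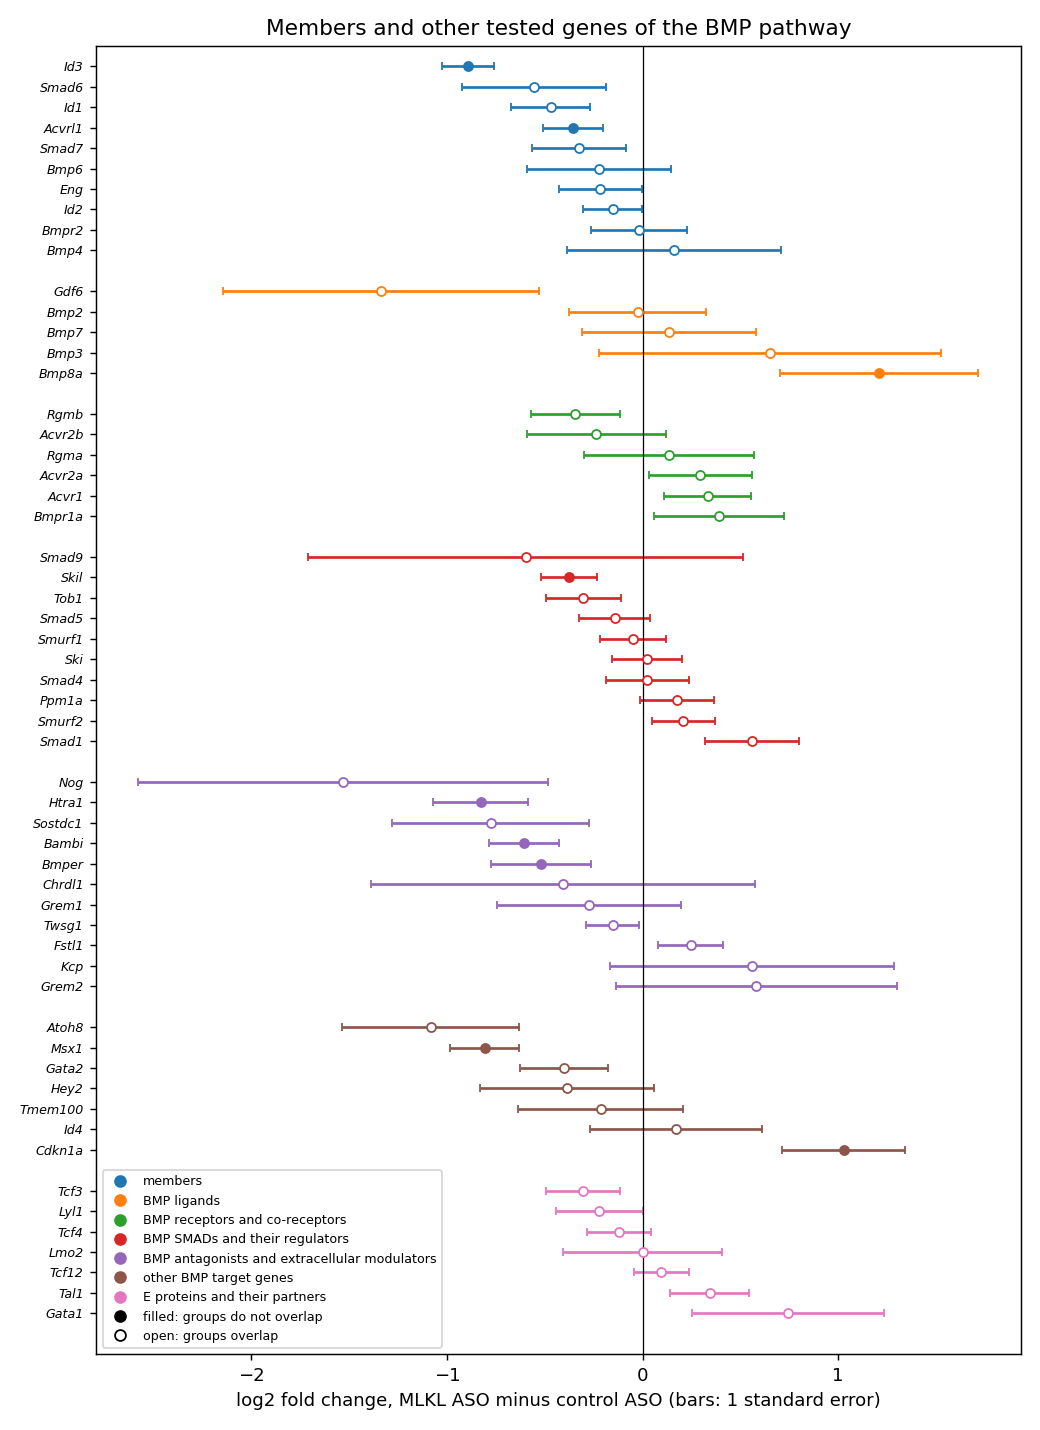
Log2 fold changes, MLKL ASO minus control ASO (x axis, bars 1 standard error from edgeR's quasi-likelihood test), of the members and the other tested genes of the BMP and E protein lists. Filled points mark genes whose groups do not overlap: Id3 and Acvrl1 among the members, Skil, Bambi, Htra1, Bmper and Msx1 as lower and Bmp8a and Cdkn1a as higher among the others.

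The list of E proteins, which Id proteins hold back, and their partners showed 0 of 7 genes without overlap, where 18.7% of all genes had none. It also had 0 genes at an unadjusted p under 0.05, where 11.8% of all genes lay. In a list of 7 genes such counts are close to those shares. Tcf4, the most abundant E protein gene here, averaged 316 ± 23.4 CPM in MLKL ASO and 344 ± 70.6 CPM in control ASO mice, and Tcf3 averaged 29.5 ± 4.42 CPM in MLKL ASO and 36.4 ± 7.37 CPM in control ASO mice (SD, n = 3). The erythroid factors Gata1 (66.1 ± 27.1 and 39.4 ± 22.2 CPM) and Tal1 (18.8 ± 3.04 and 14.8 ± 2.89 CPM) overlapped between MLKL ASO and control ASO mice as well.

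The summed levels of T and NK cell markers, dendritic cell markers and immediate early genes separated the groups as Id3 did, and those of the other marker lists overlapped. The 25 immediate early genes, which respond quickly to handling or stimulation, summed to 7035 to 9603 CPM in MLKL ASO mice and 12658 to 15444 CPM in control ASO mice. Of these genes 24 of 25 had a log2 fold change below 0, where 51.2% of all genes did. In 13 of 25 (52%) the groups did not overlap, all lower in MLKL ASO mice, against 9.71% of all genes, and Hspa1a, the most abundant and a heat shock chaperone gene, averaged 2116 ± 362 CPM in MLKL ASO and 3376 ± 657 CPM in control ASO mice (SD, n = 3 each). T and NK cell markers summed to 236 to 319 CPM in MLKL ASO mice and 351 to 888 CPM in control ASO mice, and 15 of 18 (83.3%) did not overlap, all lower, against 9.71% of all genes; Lck, the most abundant, averaged 57.6 ± 2.99 CPM in MLKL ASO and 108 ± 45.0 CPM in control ASO mice (SD, n = 3 each). Within the control ASO group the mouse with the lowest Id3, 1601, had the highest T and NK cell sum and the highest dendritic cell sum. The same mouse had the lowest control ASO sums of immediate early genes (12658 CPM, just under 12816 CPM in mouse 1602) and of pan-endothelial markers (5635 CPM). Within the MLKL ASO group the mouse with the highest Id3, 1604 (195 CPM), had the highest T and NK cell sum (319 CPM) and the lowest dendritic cell sum (305 CPM). Mouse 1607, with the lowest Id3 (170 CPM, beside 171 CPM in mouse 1603), had the highest immediate early sum of that group (9603 CPM). Its pan-endothelial sum (5073 CPM) was the lowest. Dendritic cell markers (9 genes) summed to 305 to 370 CPM in MLKL ASO and 420 to 666 CPM in control ASO mice. B cell markers lay below 0 in 11 of 11 genes (median log2 fold change -0.73), with sums of 858 to 1392 CPM in MLKL ASO and 1214 to 2775 CPM in control ASO mice that overlapped. Erythroid markers lay above 0 in 12 of 12 genes (median 0.50) and megakaryocyte markers in 10 of 10 (median 1.01). In 3 of the 10 megakaryocyte markers, all higher, the groups did not overlap, against 9.02% of all genes higher and 18.7% in either direction. The erythroid and megakaryocyte sums overlapped between the groups. Macrophage markers were mixed, with 4 above and 8 below 0 (median -0.097), as were fibroblast and mural markers, with 7 above and 8 below 0 (median -0.16). The marker lists were chosen with earlier results of these data known, so their counts beside the shares of all genes are a description. The part of the marker and immediate early levels in the Id3 difference was not tested.

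Endothelial markers overlapped between the groups as sums. The 17 pan-endothelial markers other than Eng summed to 5073 to 6416 CPM in MLKL ASO mice and 5635 to 9745 CPM in control ASO mice. The 8 sinusoid markers summed to 3071 to 3766 CPM in MLKL ASO and 2790 to 5058 CPM in control ASO mice. Of 18 pan-endothelial markers with Eng, 6 lay above and 12 below 0. Groups did not overlap in 2 higher and 2 lower (22.2%, against 18.7% of all genes). Sinusoid markers had 3 above and 5 below 0, with 2 lower without overlap (25%). DESeq2 called 1 gene of each list, as lower, where it called 2.61% of all genes. In limma-voom 1 pan-endothelial marker passed as lower, against 0.111% of all genes. Plvap, the gene of the fenestral diaphragm, made up 33.7% of the pan-endothelial sum in MLKL ASO and 46.2% in control ASO mice. It averaged 1977 ± 718 CPM in MLKL ASO and 3551 ± 876 CPM in control ASO mice (SD, n = 3), without overlap. Scaled to the pan-endothelial sum, the log2 fold change of Id3 was -0.53 (edgeR adjusted p = 0.569). Subtracting the median of all genes gave -0.86 under that scaling and -0.88 under TMM scaling. Such a subtraction takes the shift by the scaling out again, so it cannot show whether Id3 held after endothelial scaling. Scaled to the geometric mean of the same markers, Id3 was at -0.81 on the log2 scale (edgeR adjusted p = 0.563). The geometric mean gives each gene equal weight. For Id1 the values by sum and by geometric mean were -0.062 and -0.37.

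**Figure D4:**
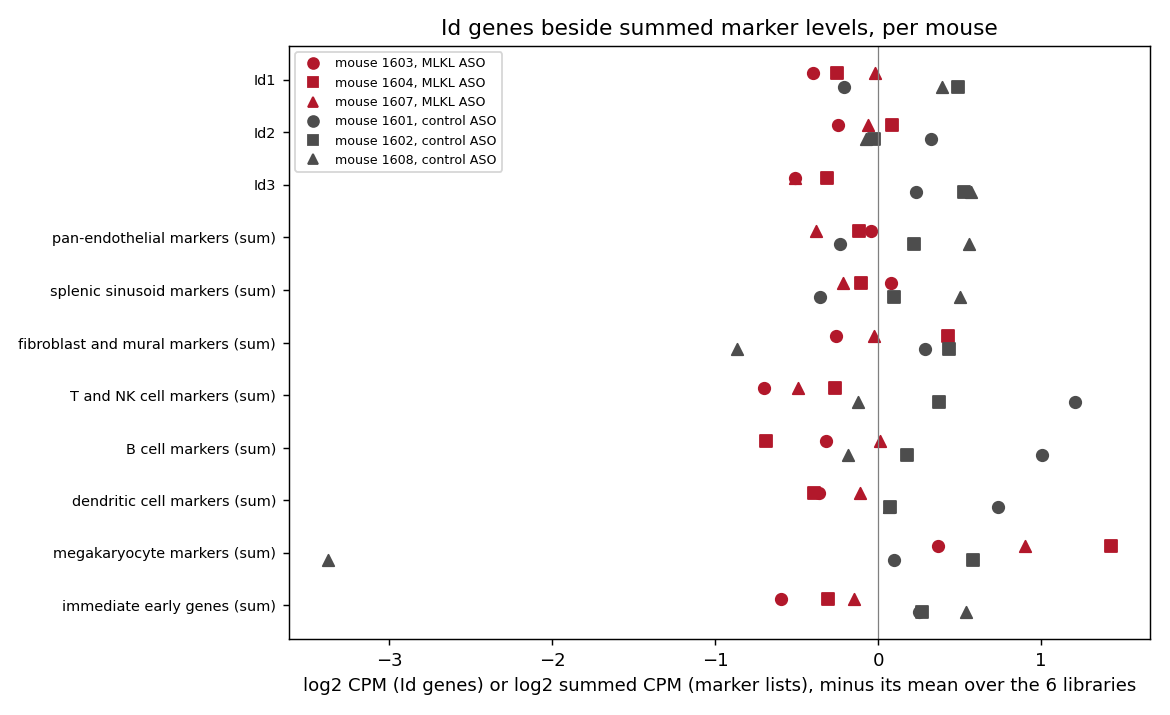
Log2 CPM of Id1, Id2 and Id3 and log2 summed CPM of 8 marker lists (rows), each minus its mean over the 6 libraries (x axis), for MLKL ASO mice (red) and control ASO mice (grey), a symbol per mouse. Id3, the T and NK cell markers, the dendritic cell markers and the immediate early genes separate the groups, while the pan-endothelial sum overlaps and the megakaryocyte sum is lowest in control mouse 1608 (106 CPM).

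**Figure D5:**
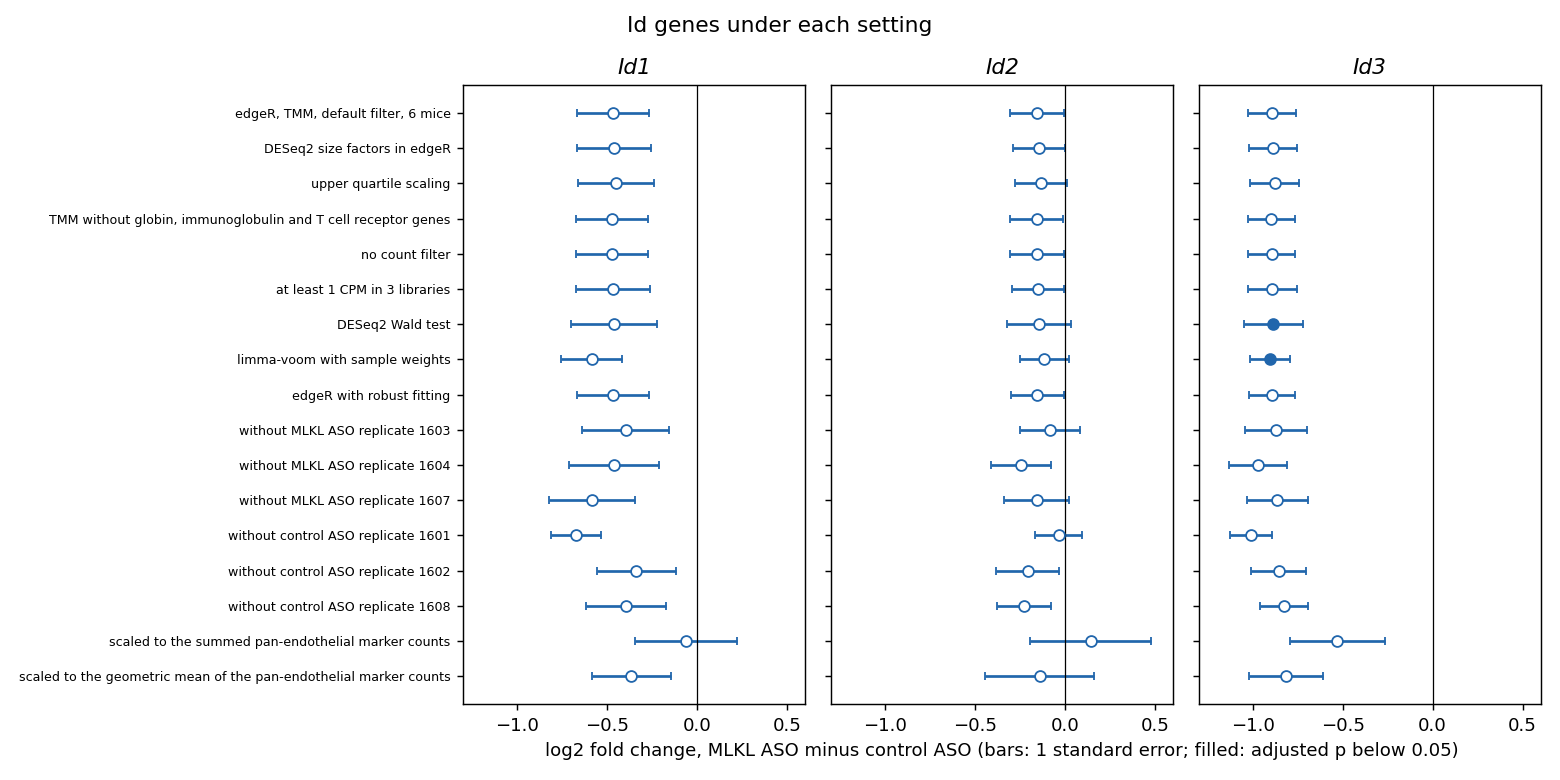
Log2 fold changes of Id1, Id2 and Id3, MLKL ASO minus control ASO (x axis, bars 1 standard error), under each setting (rows). Filled points have an adjusted p below 0.05, which holds for Id3 with DESeq2 and limma-voom. Id3 stays between -1.01 and -0.53 in all settings shown, and Id2 lies above 0 only when scaled to the summed endothelial markers (0.14).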

How the data were processed

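RNA of splenic endothelial cells was measured in 6 libraries, 1 per mouse. Per the submitters' processing notes, the tools were fastp 0.20.1, Salmon 1.3.0 and DESeq2, and no genome build is named there. The authors deposited estimated counts per gene symbol (69.3% not whole numbers) and, per the file headers, a DESeq2 table with a mean normalised signal, log2 fold changes, a Wald score and p-values. The authors' table does not state its direction. It was settled from the data: 93.6% of 19728 genes had the same sign as MLKL ASO over control ASO computed from the counts.

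Estimated counts were rounded, filtered with edgeR's default (19745 of 23207 genes kept, 10 of 10 members), scaled by TMM and tested with edgeR 4.0.16 (quasi-likelihood, two-sided, R 4.3.3), adjusting over all genes. Standard errors were derived from the F statistic. DESeq2 1.42.0, limma-voom with sample weights (limma 3.58.1), other scalings and filters and leaving out each mouse were alternatives. Likeness used log2 CPM with a prior count of 2. Exon lengths and overlaps come from GENCODE M21, which may not be the authors' annotation. The named genes are the members and the 3 nearest genes of each Id gene. Each BMP or E protein list adds up to 3 genes with the smallest p and up to 2 with the highest mean. These had a mean of at least 1 CPM. The most abundant genes of the pan-endothelial, T and NK cell and immediate early lists (Plvap, Lck and Hspa1a) are named as well. Those of the other marker lists are not named. Members and lists were chosen with earlier results of these data known. Overlapping antisense genes are named because the library kit marks strand, per the labels' protocols, but its use in counting was not given in the sources used here. P-values set the difference between the groups against the spread between libraries. With 1 library per mouse, differences between mice and between preparations are not separated in that spread.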

Additional observations from a re-analysis of the deposited data

How the results depend on the processing

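No paired analysis was possible because mouse numbers do not recur between the groups. Over 14 alternatives (other scalings, filters and tests, and leaving out each mouse) Id1, Id2, Id3, Smad6, Smad7 and Acvrl1 kept their direction. Id3 passed the threshold with DESeq2 (-0.89) and limma-voom (-0.90), and no other member passed under any setting run. Leaving out single mice moved Bmp4 between -0.28 and 0.52, Bmpr2 between -0.29 and 0.18, Bmp6 between -0.43 and 0.084, Eng between -0.39 and 0.065 and the median of the other BMP genes between -0.17 and 0.024. Over all genes it gave 0 to 10 higher and 0 to 9 lower. Counts higher and lower were 1 and 1 with edgeR, 2 and 2 with upper quartile scaling, 4 and 3 without globin, immunoglobulin and T cell receptor genes, 224 and 291 with DESeq2 and 9 and 13 with limma-voom. Scaling to endothelial markers was chosen after seeing the data. By their sum it gave 10 and 3 genes, shifted the median of all genes to 0.33 by its construction and put Id2 (0.14), Smad7 (0.030), Eng (0.19), Bmpr2 (0.41), Bmp6 (0.10) and the other BMP genes (median 0.24) above 0. By their geometric mean it gave 5 and 1, with Bmpr2 at 0.11. No cause was tested, and scaling to endothelial markers cannot tell fewer cells from less RNA per cell. With 3 mice per group only large or very even differences can pass; Smad6 and Bmp4 rest on as few as 140 and 70 counts in a library.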
